A study of Mus musculus with 4 samples.

Results

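The collagens that build the fibrils of cartilage were followed on 4 expression arrays of primary mouse chondrocytes. The members are Col2a1 (type II collagen), Col9a1, Col9a2 and Col9a3 (type IX), Col11a1 and Col11a2 (type XI) and Col27a1 (type XXVII). They were chosen by name, as every probe on the array whose RefSeq accession belongs to one of these genes, which gave 7 of 37042 genes and 8 probes, since Col9a1 has 2. The members and the gene lists used below were chosen with earlier results of these data known. The study asked which genes depend on Rela, the p65 subunit of the transcription factor NF-κB, in chondrocytes with and without tumour necrosis factor (TNF-α, TNF below), a cytokine that activates NF-κB. The 4 samples were Rela fl/fl cells (labelled Control, control cells below) and Prrx1-Cre;Rela fl/fl cells (labelled Rela CKO, cKO below), each without and with TNF. All cells came from 6-day-old C57BL/6J mice, genotypes were compared between littermates, and TNF was given at 10 ng/mL for 3 days. Every sample carried the floxed Rela allele, and only the cKO samples carried Cre, so loss of Rela and presence of the Cre transgene cannot be told apart. The Prrx1 promoter drives Cre in limb mesenchyme, so cells of another origin would keep Rela. The number of animals behind each culture is not given in the sources used here.

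Each condition was measured on 1 array, so there is no replicate behind any value and conditions were not tested against each other. Values are given as signal, the processed intensity of a spot divided by the 75th percentile of the transcript spots on the same array (589 to 633 intensity units). The arrays shared 1 slide and 1 scan. Probes printed at 10 spots each gave a technical spread of 0.14 for a log2 difference between arrays, and 2 of these spreads (0.28) are used below beside the limit of 2-fold. This spread covers the array surface only and leaves out differences between cultures. Spots lying in bright patches of an array, which held 1.04% to 10.7% of the spots, are named where a collagen spot was among them.

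The Rela probe did not show a loss of Rela. Rela itself had a signal of 28.4 in control cells without TNF and 34.9 with TNF, and of 34.0 and 40.2 on the cKO-labelled arrays, so it was not lower there. Whether its probe lies in the deleted part of the gene is not given in the sources used here, and if it does not, this checks nothing. Xist was well above background on the control arrays and on neither cKO-labelled array, and the Y-linked gene Ddx3y had signals of 1.31 and 1.30 on the control arrays and of 3.67 and 4.24 on the cKO-labelled arrays. Ddx3y was well above background on all 4 arrays, so the control arrays read both Xist and a Y-linked gene. The mix of sexes in the cultures and the genotype label therefore cannot be told apart in any genotype difference below. TNF had acted, since Ccl2, a chemokine gene and NF-κB target, went from 0.92 to 29.8 in control cells and from 0.916 to 8.23 on the cKO-labelled arrays. Mmp3 and Nfkbia, also chosen as checks, had log2 TNF changes of 4.64 and 1.51 in control cells. On the cKO-labelled arrays these were 2.56 and 0.87. With TNF, the log2 differences of the cKO-labelled from the control array were -1.86 for Ccl2, -3.38 for Mmp3 and -0.71 for Nfkbia. Without TNF they were -0.01, -1.30 and -0.06.

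Type II collagen, made of 3 identical Col2a1 chains, forms the bulk of the cartilage fibril. Type XI collagen lies inside the same fibril and limits its thickness, and one of its chains is itself a product of the Col2a1 gene. Type IX collagen, built from the chains of Col9a1, Col9a2 and Col9a3, decorates the fibril surface and links it to other matrix proteins. Type XXVII collagen is a fibrillar collagen with a shorter triple helix, found in cartilage and where cartilage is turned into bone. Sox9, with its partners Sox5 and Sox6, drives the genes of the cartilage collagens, and inherited defects in them cause chondrodysplasias. Loss of these transcripts in culture is a known sign that chondrocytes lose their character.

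The sequences just before the transcription start of these genes are shown because the members did not move alike, and because Rela binds a DNA motif that can be looked for there. RefSeq (GRCm38.p6) gave the 250 bases before the start for 5 of the 7 genes, with 2 starts for Col9a1, and none is printed for Col2a1 and Col9a3. Both strands were searched for the κB consensus, the GC box GGGCGG, the SOX motifs ACAAAG and ACAATG and the TATA box TATAAA, none of which overlapped another in these windows. Capitals mark the matches, on either strand, and positions count the bases from the first base of the match to the start. All 4 windows below lie on the plus strand, and they are those of Col9a2, Col11a1, Col11a2 and Col27a1.
Col9a2, chr4:121039316-121039565: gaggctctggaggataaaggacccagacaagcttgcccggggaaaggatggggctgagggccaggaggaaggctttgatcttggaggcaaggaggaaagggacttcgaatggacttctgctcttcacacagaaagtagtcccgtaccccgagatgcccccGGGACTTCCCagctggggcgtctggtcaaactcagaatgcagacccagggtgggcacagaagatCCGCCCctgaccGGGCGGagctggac
Col11a1, chr3:114030290-114030539: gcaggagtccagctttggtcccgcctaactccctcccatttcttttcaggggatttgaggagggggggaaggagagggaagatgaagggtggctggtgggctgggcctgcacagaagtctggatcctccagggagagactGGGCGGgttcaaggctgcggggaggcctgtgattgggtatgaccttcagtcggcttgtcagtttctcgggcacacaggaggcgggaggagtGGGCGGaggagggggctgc
Col11a2, chr17:34038888-34039137: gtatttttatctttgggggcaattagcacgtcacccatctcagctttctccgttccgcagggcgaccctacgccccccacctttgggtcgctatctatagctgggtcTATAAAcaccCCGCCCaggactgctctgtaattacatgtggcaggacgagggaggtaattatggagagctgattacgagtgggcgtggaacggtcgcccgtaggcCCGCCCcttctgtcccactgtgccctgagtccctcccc
Col27a1, chr4:63215162-63215411: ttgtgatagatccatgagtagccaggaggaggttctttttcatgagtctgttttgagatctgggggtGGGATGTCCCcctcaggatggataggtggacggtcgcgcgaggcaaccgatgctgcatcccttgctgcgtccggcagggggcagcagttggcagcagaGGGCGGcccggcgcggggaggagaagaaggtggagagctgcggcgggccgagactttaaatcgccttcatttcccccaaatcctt

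The κB consensus was matched at -90 in Col9a2 (GGGACTTCCC) and at -183 in Col27a1 (GGGATGTCCC). It was also matched at -198 of the second Col9a1 start (chr1:24194953-24195202), but not in the window of the first (chr1:24177360-24177609) or in those of Col11a1 and Col11a2. Of all 32851 promoter windows of this length, 7.25% held the κB consensus. GC boxes stood at -26 and -14 in Col9a2, at -110 and -19 in Col11a1, at -133 and -38 in Col11a2 and at -85 in Col27a1, and 32.7% of all windows held one. Col11a2 also had a TATA box at -143, as found in 12.4% of all windows. No SOX motif was found in the 6 windows, where 16.5% and 10.7% of all windows held ACAAAG and ACAATG. A match of letters describes the window and does not show that a factor binds there.

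All 8 collagen probes were well above background on all 4 arrays, with no outlier or saturated spot. The plot of their signals shows a step down from the control arrays to the cKO-labelled arrays for every probe but that of Col2a1.

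**Figure D1:**
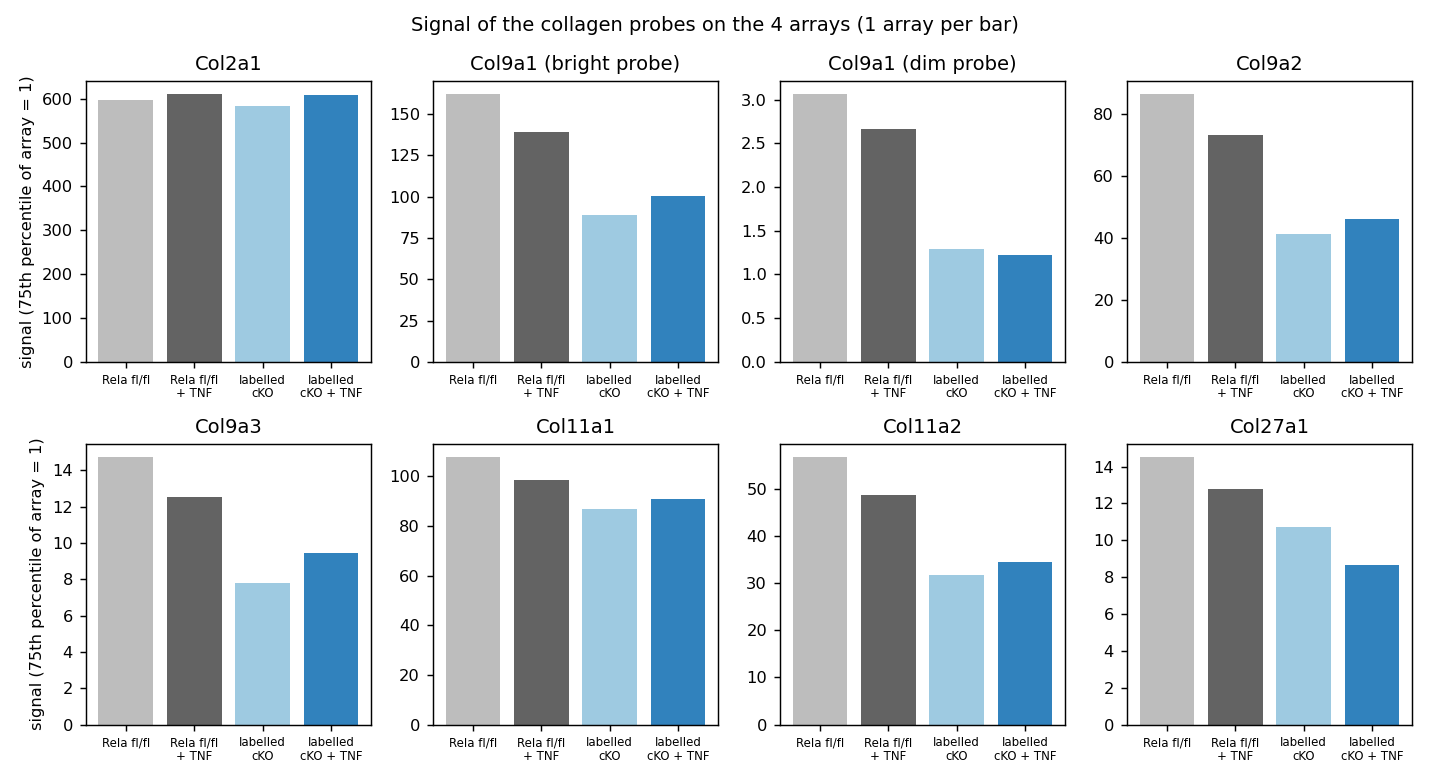
Signal of the 8 collagen probes (y axis, 75th percentile of the array = 1, separate scales starting at 0), with 1 bar per array for control cells (Rela fl/fl) and the cKO-labelled arrays, without and with TNF. Col2a1 stayed between 584 and 610, whereas Col9a2 went from 86.3 and 73.2 in control cells to 41.1 and 46.1 on the cKO-labelled arrays.

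Col2a1, read by probe A_55_P2004179 (NM_001113515), had a signal of 597 in control cells without TNF and 610 with TNF, and of 584 and 608 on the cKO-labelled arrays. The levels under the genotype labels overlapped, and no neighbours in the order of the 4 levels differed beyond 2 technical spreads. Its log2 differences were 0.03 and 0.06 with TNF and -0.03 and -0.01 for the cKO label without and with TNF, and the sign of each changed under at least 1 other scaling or background setting. The range over the 4 arrays was 0.06 on the log2 scale. The spot was among the 3 brightest transcript spots of every array, with intensities between 358096 and 375213 and no saturation flag. The 40 genes with the brightest probes had a median range of 0.16 and a highest range of 0.36, and 2 of them, Col2a1 included, had a range as small as that of Col2a1. Whether a larger difference in RNA could be read at this brightness was not tested.

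The type IX chains were lower on both cKO-labelled arrays than on both control arrays. Col9a2 (A_51_P401504, NM_007741) had signals of 86.3 and 73.2 in control cells without and with TNF, and of 41.1 and 46.1 on the cKO-labelled arrays. Without TNF this is a log2 difference of -1.07, or 2.10-fold, and with TNF of -0.67, or 1.59-fold. With each gene at its brightest probe, it was the 1 member past the 2-fold limit in any of the 4 comparisons. Col9a3 (A_66_P101732, NM_009936) had signals of 14.7 and 12.6 in control cells, and of 7.78 and 9.47 on the cKO-labelled arrays. The label differences were -0.92 without TNF and -0.41 with TNF, so that the gap between the genotypes was smaller with TNF, as it was for Col9a2.

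Col9a1, whose product is the chain that carries the globular domain projecting from the fibril, was read by 2 probes with the same accession, NM_007740. The bright probe (A_55_P1999532) had signals of 162 and 139 in control cells without and with TNF, and of 88.6 and 100.2 on the cKO-labelled arrays. The dim probe (A_55_P2005269) had signals of 3.06 and 2.66 in control cells, and of 1.30 and 1.22 on the cKO-labelled arrays. Both probes were thus lower on the cKO-labelled arrays, but by different amounts. The label difference was -0.87 and -0.47 without and with TNF at the bright probe, and -1.24 and -1.13 at the dim one, which was past 2-fold both times. They also disagreed on TNF in the cells labelled cKO, with 0.18 at the bright and -0.09 at the dim probe, both within 2 technical spreads.

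Within type IX, the 3 chains lay close together in the TNF change of control cells, at -0.22 (Col9a1, bright probe), -0.24 (Col9a2) and -0.23 (Col9a3). In the label difference without TNF they spanned 0.20 on the log2 scale, less than 2 technical spreads. The order of the 4 levels was the same at these 3 probes, from control without TNF through control with TNF and cKO with TNF down to cKO without TNF. For Col9a1 and Col9a2, the one step in this order beyond 2 technical spreads was that between the genotype labels. For Col9a3, the step between the cKO-labelled arrays was also just beyond it.

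The chains of type XI differed from each other. Col11a2 (A_55_P2091601, NM_009926) had signals of 56.8 and 48.6 in control cells without and with TNF, and of 31.8 and 34.6 on the cKO-labelled arrays. Its label differences were -0.84 and -0.49, which is 1.79-fold and 1.41-fold. Col11a1 (A_55_P2100375, NM_007729) had signals of 107.8 and 98.6 in control cells, and of 86.8 and 90.9 on the cKO-labelled arrays. It followed the same order of levels, but with label differences of -0.31 and -0.12, and no neighbours in that order differed beyond 2 technical spreads. The label differences of the chains were 0.52 apart without TNF and 0.38 apart with TNF.

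Col27a1 (A_52_P480088, NM_025685) had signals of 14.5 and 12.8 in control cells without and with TNF, and of 10.7 and 8.64 on the cKO-labelled arrays. It was lower with TNF under both genotype labels, by log2 differences of -0.19 in control cells and -0.31 on the cKO-labelled arrays. Its label differences were -0.44 without TNF and -0.56 with TNF. Unlike the type IX chains at their bright probes and the type XI chains, it had its lowest signal on the cKO-labelled array with TNF. The step from cKO without TNF to cKO with TNF was the one beyond 2 technical spreads between neighbours in its order, although the full range was 0.75.

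Taking 1 probe per gene, the one with the highest mean, 1 of the 7 genes (Col9a2) was lower past 2-fold on the cKO-labelled array without TNF, and 0 were higher. Of 24277 genes tested in that comparison, 4.4% were lower past 2-fold and 3.51% were higher. Past 2 technical spreads, 6 of the 7 were lower, all but Col2a1, and 0 were higher, against 12.6% and 16.7% of all genes. The median of the 7 was -0.84, against 0.00 over all genes. With patches left out, which removes Col9a2 and Col11a2, the median of the remaining 5 genes was -0.44. With patches left out only on the 2 arrays compared, tried after seeing the data, it was -0.84. The 5th percentile of single genes was -0.81, and Col9a1, Col9a2, Col9a3 and Col11a2 lay below it.

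With TNF, 0 of the 7 were past 2-fold in either direction between the genotype labels, where 3.21% of 24513 genes were lower and 1.16% higher. The balance over all genes turned with patches left out, from 787 lower and 285 higher to 181 and 198, as it did without TNF, from 1068 lower and 852 higher to 196 and 231. Past 2 technical spreads, 5 of the 7 were lower and 0 higher, against 12.3% and 16.9% of all genes, and Col11a1 and Col2a1 were within it. The median of the 7 was -0.47 and that of all genes 0.05. Both comparisons can be read together as the separation of the arrays. Both control arrays were above both cKO-labelled arrays for 6 of the 7 genes, as they were for 16.8% of the 20482 genes well above background on all 4 arrays. By more than 2 technical spreads, this held for 4 of the 7 (Col9a1, Col9a2, Col9a3 and Col11a2) and for 2.25% of all genes. The reverse order held for 0 of the 7, and for 24.1% of all genes, or 2.87% by more than 2 technical spreads.

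**Figure D2:**
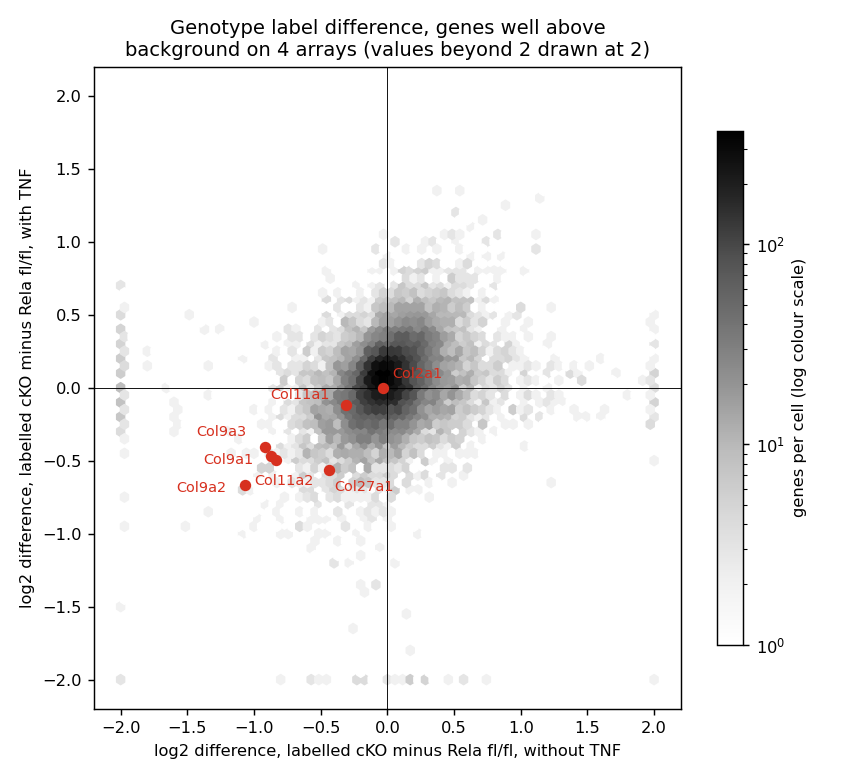
Log2 difference of the cKO-labelled arrays from the control arrays without TNF (x axis) and with TNF (y axis) for the genes that every array read well above background, shaded by number, with the 7 collagen genes in red at their brightest probe (control cells are Rela fl/fl). Col2a1 sat near the origin, Col9a2 was at -1.07 and -0.67, and Col27a1 was the one member further from 0 with TNF (-0.56) than without (-0.44).

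The TNF changes of the 7 genes lay between -0.31 and 0.28. In control cells, 0 of the 7 genes were past 2-fold, where 4.27% of 23408 genes were lower and 2.39% higher. None was past 2 technical spreads either, against 12.2% of all genes lower and 11.4% higher. Bright probes repeat better, and the repeated probes with a signal over 8 gave 0.16 for 2 technical spreads, a limit added after the data were seen. Among the 4214 genes with a signal over 8 on every array, which include all members but Col9a3, Col9a1, Col9a2, Col11a2 and Col27a1 were lower past it, as were 5.86% of these genes, and 0 of the 6 were higher, as were 13.1%. The members nevertheless lay on one side: all but Col2a1 were below 0, between -0.24 (Col9a2) and -0.13 (Col11a1), with a median over the 7 of -0.22 and over all genes of 0.01.

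On the cKO-labelled arrays, 0 of the 7 were past 2-fold with TNF, where 4.46% of 24903 genes were lower and 1.02% higher. Of all genes called there, 81.3% were lower, 70.4% with quantile normalization, 89.2% with normexp background correction and 63.4% with patches left out. Past 2 technical spreads, Col9a3 was higher at 0.28 and Col27a1 lower at -0.31, against 13.8% of all genes higher and 15.9% lower. At the limit for bright probes, Col9a1 and Col9a2 were higher, as were 43.0% of the genes with a signal over 8 on every array, and Col27a1 was lower, as were 3.8% of them. The value of Col9a3 dropped to as little as 0.17 under other scalings, within 2 technical spreads. Col9a1 (bright probe), Col9a2, Col11a1 and Col11a2 were between 0.07 and 0.18, of which Col11a1 changed sign under 4 other settings and Col11a2 under quantile normalization. The median of the 7 was 0.12 and that of all genes 0.06. Without scaling these were 0.02 and -0.05, and the median of the 7 was 0.01 with quantile normalization. The genes with a signal over 8 on every array had a median of 0.14 there. Signs opposite between the genotype labels, below 0 in control cells and above 0 on the cKO-labelled arrays, were found for 5 of the 7 collagens and 27.6% of all genes. With a difference past 2 technical spreads of such a difference of differences (0.39), they were found for 3 of the 7 (Col9a1, Col9a2 and Col9a3) and 6.11% of all genes. Of these, Col9a3 alone was over that limit in every setting tried (0.40 to 0.51). Col9a1 was under it in all 5 other settings (0.27 to 0.34), and Col9a2 in 4 of 5 (0.29 to 0.34), the exception being normexp.

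**Figure D3:**
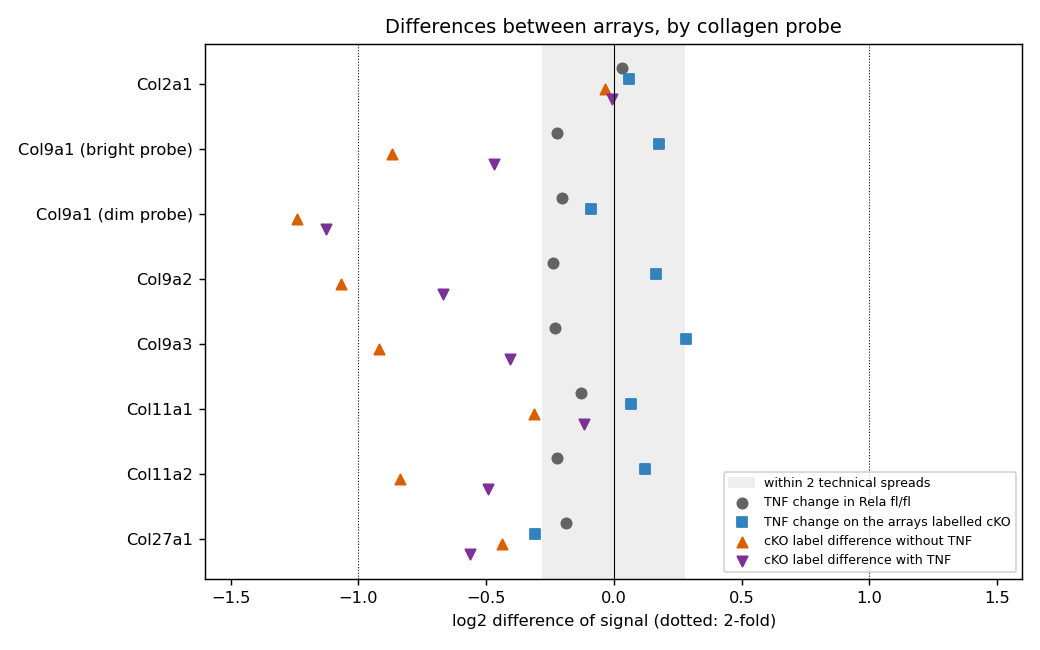
Log2 differences between arrays (x axis) for each collagen probe (rows), with 1 point per comparison, grey for 2 technical spreads and dotted lines for 2-fold. The TNF changes lay between -0.31 and 0.28, and the genotype label differences reached -1.07 at Col9a2 and -1.24 at the dim Col9a1 probe.

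Dim probes ranged further over the 4 arrays than bright ones, so each collagen is set beside probes of like brightness. Probes between 6 and 8 in mean log2 signal had a median range of 0.21 and a 95th percentile of 0.53 over the 4 arrays, and there Col9a1 (bright probe) had a range of 0.87 and Col11a1 one of 0.31. Between 4 and 6, where the 95th percentile was 0.61, Col9a2 had a range of 1.07 and Col11a2 one of 0.84. Between 2 and 4, where it was 0.64, Col9a3 had a range of 0.92 and Col27a1 one of 0.75. The dim Col9a1 probe had a range of 1.33, where the 95th percentile between 0 and 2 was 0.80. These ranges describe spots, and a brighter spot of one gene does not show more of its RNA than of another.

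**Figure D4:**
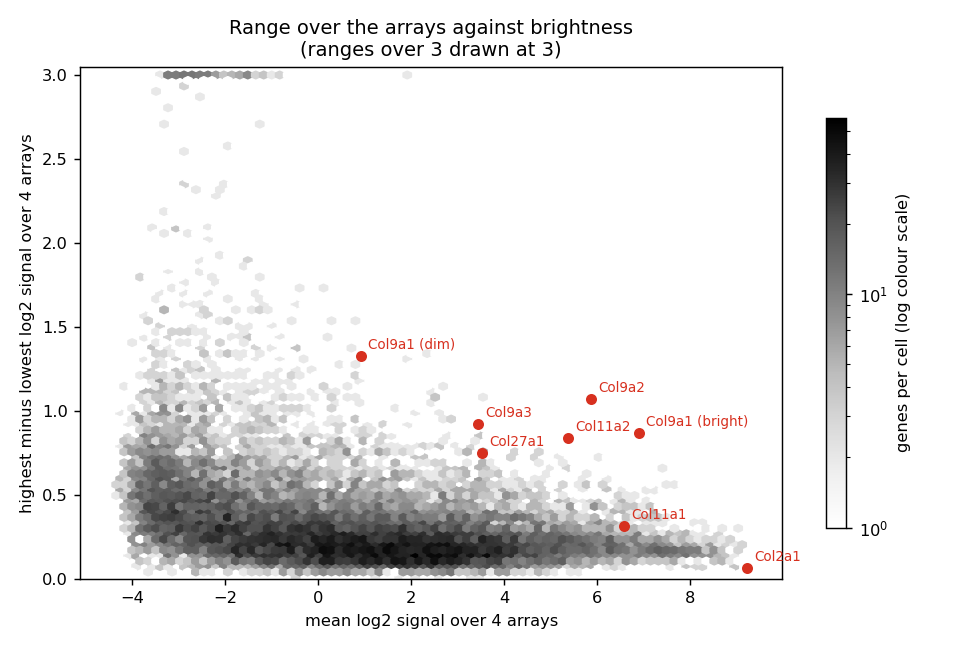
Highest minus lowest log2 signal over the 4 arrays (y axis) against the mean log2 signal (x axis), for the genes that every array read well above background, shaded by number, with the 8 collagen probes in red. Col2a1 was at the bright end with a range of 0.06, and the type IX probes had ranges between 0.87 and 1.33.

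Of the collagen spots, 3 lay in a bright patch of an array: that of the bright Col9a1 probe in control cells without TNF, and those of Col9a2 and Col11a2 in control cells with TNF. Spots of the repeated probes inside patches exceeded those outside by a median of 7.60 and 13.3 intensity units on these arrays, with 95th percentiles of 481 and 505. The 3 collagen spots had intensities of 98898, 45061 and 29919 there. The label differences without TNF of Col9a2, Col9a3, Col11a2 and the dim Col9a1 probe used no spot in a patch. Their share in the remaining values was not tested.

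The cells carried the markers of chondrocytes, and some markers of other cell types differed with the genotype label. All 7 chondrocyte markers were well above background on all 4 arrays, with a summed signal of 1295 and 1258 in control cells and of 1096 and 1106 on the cKO-labelled arrays. Col2a1, itself a member here, and Comp gave most of this sum (597 and 461 of 1295), which hides the lower Matn1 described below. All 6 fibroblast-like markers were also above background throughout, with sums of 812 and 837 in control cells against 714 and 730. Col1a2, Col1a1 and Dcn gave most of these sums, and past 2 technical spreads Thy1 (-1.59) and Dcn (-0.44) were lower on the cKO-labelled array without TNF, and Col3a1 (-0.38) and Pdgfra (-0.41) with TNF, against 12.6% and 12.3% of all genes. The spot of Dcn lay in a patch on the control array without TNF. Of the osteoblast markers, Ibsp and Sp7 were read, and their sum was 4.27 and 3.54 in control cells but 9.29 and 6.99 on the cKO-labelled arrays, nearly all of it Ibsp (4.19 of 4.27). The leukocyte list, with 6 of 7 markers read, summed to 36.2 to 39.3 in control cells and to 35.6 to 44.4 on the cKO-labelled arrays, with its defining marker Ptprc not well above background on any array. Itgam gave most of that sum (35.1 of 39.3). Within the list, Lyz2 had label differences of -2.11 and -0.94 without and with TNF, its spot being in a patch on the control array without TNF, and Adgre1 had 2.87 and -0.50, its spot being in a patch on the cKO-labelled array without TNF. For endothelial cells (4 of 4 read), the sums were 18.0 to 18.4 and 17.7 to 20.7, with Cdh5 and Tek not well above background on any array. Kdr gave nearly all of this (18.2 of 18.4). Pecam1 had label differences of 0.37 and -0.02, the first past 2 technical spreads, against 16.7% of all genes higher. For skeletal muscle (4 of 4 read), the sums were 1.74 to 1.87 and 2.50 to 2.69, with Myog, Myod1 and Ckm not well above background on any array. That sum was nearly all Acta1 (1.83 of 1.87), whose label differences were 0.54 and 0.53. The part of such cells in the collagen differences was not tested, and in RNA from whole cultures fewer cells of a type and less RNA per cell cannot be told apart.

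Other genes of the cartilage matrix lay on the same side as the type IX chains. This list and those that follow were chosen with earlier results of these data known, so their counts are descriptions only. Of 13 matrix partners tested, 9 were lower on the cKO-labelled array past 2 technical spreads without TNF and 0 were higher, against 12.6% and 16.7% of all genes, with a median of -0.61. With TNF, 8 were lower and 1 was higher, against 12.3% and 16.9% of all genes, with a median of -0.48. For the TNF change itself, 6 were lower and 1 was higher in control cells, against 0 lower and 3 higher between the cKO-labelled arrays, with medians of -0.24 and 0.05. Over all genes, 12.2% were lower and 11.4% higher in the first of these, and 15.9% and 13.8% in the second. Matn1, a matrilin that bridges fibrils and proteoglycans, had signals of 90.4 and 73.8 in control cells and of 25.0 and 32.4 on the cKO-labelled arrays. Its label differences were -1.86 and -1.19, and it showed the same order of levels as Col9a2. Acan, the large aggregating proteoglycan, had 100.5 and 81.9 in control cells and 66.0 and 58.8 on the cKO-labelled arrays. Its spot lay in a patch on the cKO-labelled array with TNF. Matn3 had label differences of -0.52 and -0.18. Comp, which binds type II and type IX collagen, had differences of -0.26 and -0.29, close to 2 technical spreads. Prg4, the lubricin gene, which had the largest TNF change of this list in control cells (0.93), had label differences of 0.13 and -0.54. The spot of Prg4 lay in a patch on the cKO-labelled array without TNF.

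A list of 8 chondrocyte transcription factors held the collagen regulators Sox9, Sox5 and Sox6 and 5 others. Past 2 technical spreads, 1 was lower (Sox6) and 2 were higher (Sox5 and Runx2) without TNF, and 2 were lower (Sox6 and Hif1a) and 2 higher (Runx2 and Runx3) with TNF. Over all genes, 12.6% were lower and 16.7% higher without TNF, and 12.3% and 16.9% with TNF. The medians were 0.04 and -0.03. Sox9 had signals of 14.2 and 13.6 in control cells and of 12.7 and 12.4 on the cKO-labelled arrays, all within 2 technical spreads. Its spot lay in a patch on the control array with TNF and on the cKO-labelled array without TNF. Sox5 had label differences of 0.30 without TNF and 0.05 with TNF. Sox6 had signals of 1.34 and 0.61 in control cells and of 0.62 and 0.48 on the cKO-labelled arrays. Its label difference was -1.11 without TNF and -0.34 with TNF, and its spot lay in a patch on the first of these arrays. Runx2, Runx3 and Hif1a, named after their values were seen, had differences of 0.60 and 0.47, 0.27 and 0.30, and 0.01 and -0.35.

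Genes of hypertrophic chondrocytes, the stage that precedes replacement by bone, lay on the opposite side. Past 2 technical spreads, 6 of 7 were higher on the cKO-labelled array without TNF and 6 of 7 with TNF, and 0 were lower in either, against 16.7% and 16.9% of all genes higher, with medians of 0.52 and 0.52. Ibsp is one of the 6 in each and is also the osteoblast marker given above. Col10a1, the collagen particular to that stage, had signals of 8.24 and 7.27 in control cells and of 14.6 and 14.2 on the cKO-labelled arrays. Its label differences were 0.83 and 0.96. Mmp13, a collagenase that cleaves type II collagen, went from 6.08 to 12.9 with TNF in control cells but from 12.5 to 11.5 on the cKO-labelled arrays, the only member of this list with an opposite sign of the label difference with TNF (-0.17) and without (1.04).

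The collagens of fibroblast-like cells had medians of 0.00 without TNF and -0.10 with TNF. Past 2 technical spreads, 1 of the 10 tested was lower without TNF (Col14a1, named after its value was seen), and with TNF 3 were lower and 1 was higher, against 12.6% of all genes lower without TNF and 12.3% lower and 16.9% higher with TNF. Col1a1, of type I collagen, had signals of 162 and 164 in control cells and of 168 and 163 on the cKO-labelled arrays. Col1a2 had label differences of -0.18 and -0.24, Col3a1 of -0.20 and -0.38, and Col5a1 of 0.13 and 0.12. The spot of Col5a1 lay in a patch on the cKO-labelled array without TNF. Col5a3 had the largest TNF change of the list, 1.58 in control cells and 0.61 on the cKO-labelled arrays, with its spot in a patch on the control array with TNF. Its label differences were -0.20 and -1.17. The second was the only label difference of the list past 2-fold, where 3.21% of all genes were lower.

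The proteins that make, cut and bind collagen were also followed, with the same limit of 2 technical spreads and the same shares over all genes (16.7% higher and 12.6% lower without TNF, 16.9% and 12.3% with TNF). Of 19 hydroxylases, chaperones and crosslinking enzymes, 3 were higher and 3 lower without TNF, and 2 higher and 2 lower with TNF, with a median of -0.06 in both. Serpinh1, the collagen chaperone Hsp47, had signals of 156 and 138 in control cells and of 124 and 132 on the cKO-labelled arrays. Lox, a crosslinking oxidase, had the largest TNF change of that list in control cells (0.49), with its spot in a patch on the array without TNF, and a change of -0.03 on the cKO-labelled arrays. Of 10 trimming and cleaving enzymes, 1 was higher (Mmp13) and 1 lower without TNF, and 0 were higher and 2 lower with TNF. One of these was Mmp14, a membrane-bound collagenase, at -0.32. Of 6 collagen receptors, 3 were higher without TNF and 4 with TNF, and 0 were lower. The integrin gene Itga2 had label differences of 0.55 and 1.17, at signals near the lowest that were well above background. These were 0.065 and 0.047 in control cells and 0.095 and 0.105 on the cKO-labelled arrays. Itga11, chosen after its values were seen, had signals of 12.6 and 12.3 in control cells and of 27.6 and 25.1 on the cKO-labelled arrays.

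**Figure D5:**
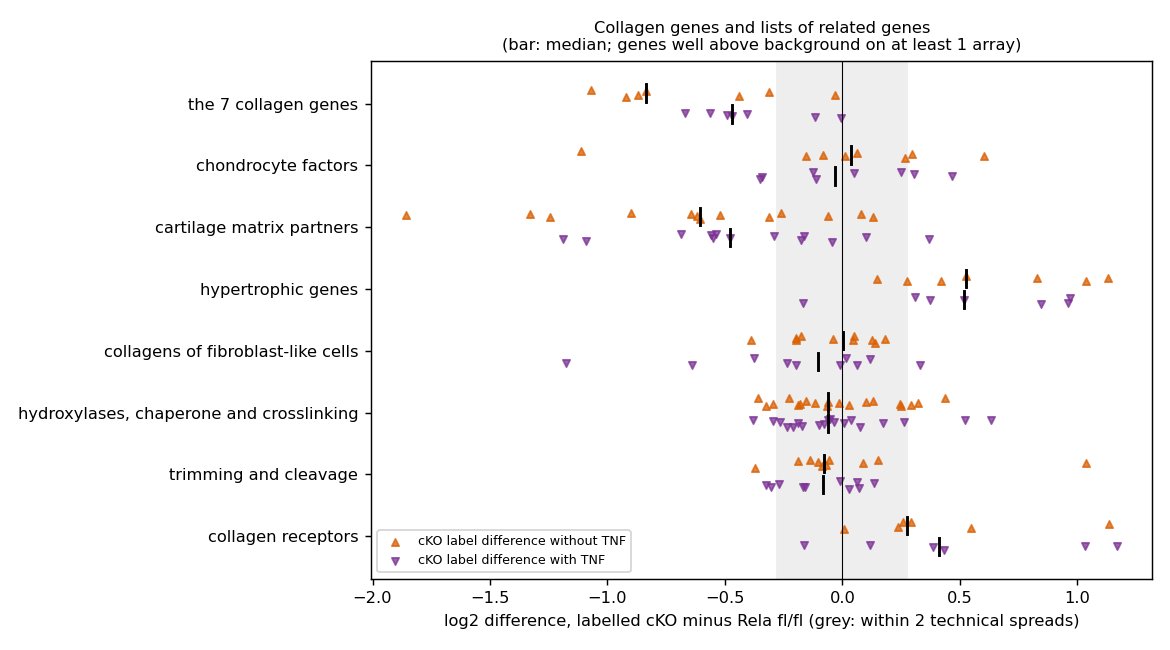
Log2 difference of the cKO-labelled arrays from the control arrays (x axis) for the 7 collagen genes and 7 lists of related genes (rows), without TNF (orange) and with TNF (purple), 1 point per gene well above background on at least 1 array and a black bar at the median. The medians without TNF were -0.84 for the cartilage collagens and -0.61 for the matrix partners, against 0.52 for hypertrophic genes and 0.00 for the collagens of fibroblast-like cells. For the cartilage collagens it was -0.44 with patches left out, which drops Col9a2 and Col11a2 for a patch on the control array with TNF. It was -0.84 with patches left out only on the 2 arrays compared.

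Over the 4 arrays, the genes nearest to a member were found by the Euclidean distance between log2 signals less their mean, among 13346 genes with a symbol that every array read well above background. For Col2a1 these were Ddrgk1, Strada, Mnt, Med19 and Ankib1, but 8815 of the candidates lay within 2 technical spreads of it, so that a flat pattern singles out nothing. For Col27a1 they were Hs3st3a1, Cacna1g, Tcea3, 4930452G13Rik and Fam221a, with 294 within that distance. Likeness over 4 arrays is a description, since the arrays share a slide and each pattern has 4 values.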

How the data were processed

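RNA from 4 samples, 1 per condition, was labelled with Cy3 and hybridised to SurePrint G3 mouse arrays (Agilent), per the labels and the study's methods. The authors deposited spot intensity, background-subtracted and detrended by Agilent Feature Extraction 10.10.1.1, and a table of the same intensity times 1 factor per array, used here as an alternative. Here, log2 intensity less the 75th percentile of transcript spots on its array was used. Outlier spots were dropped and repeat spots averaged. The brightest probe on average represented a gene. Unversioned accessions were matched to RefSeq symbols (GRCm38.p6), which named 27208 of 55619 probes. A gene was tested when well above background on at least 1 array of a comparison, the dimmer signal being raised to the lowest probe signal well above background on its array. Patches were areas where, in a window of 5 rows and 2 columns to each side, at least 3 of 54 neighbours were 2-fold or more above their level on every other array (values raised to at least -4.5). The number of arrays limits the precision, and no p-values were computed. The members and the gene lists were chosen with earlier results of these data known. Members were named whole, as were Sox9, Sox5, Sox6, Acan, Matn1, Matn3, Comp, Col10a1, Col1a1, Col1a2, Col3a1, Col5a1, Mmp13, Mmp14, Serpinh1 and the gene of each list with the largest TNF change in control cells. The scripts were tested on simulated data. Python 3.11.15, numpy 2.4.6, pandas 2.3.3, matplotlib 3.10.9 R 4.3.3 and, for quantile and normexp (offset 50) alternatives, limma 3.58.1 were used.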

Additional observations from a re-analysis of the deposited data

Results flagged for a closer look

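The TNF difference of 5 collagen probes had opposite signs under the 2 genotype labels, below 0 in control cells and above 0 on the cKO-labelled arrays. The same signs were found for 27.6% of the 20482 genes that every array read well above background. None of the 5 was past 2 technical spreads in control cells, and only Col9a3 was on the cKO-labelled arrays. At the smaller limit of 0.16 for bright probes, Col9a1, Col9a2 and Col11a2 were lower past it in control cells, as were 5.86% of genes with a signal over 8 on every array, and Col9a1 and Col9a2 were higher past it on the cKO-labelled arrays, as were 43.0% of those genes, whose median there was 0.14. With 1 array per condition, these differences were not tested. The TNF change on the cKO-labelled arrays minus that in control cells was 0.40 for the bright probe of Col9a1, 0.40 for Col9a2, 0.51 for Col9a3, 0.20 for Col11a1 and 0.34 for Col11a2, on the log2 scale. A difference of 2 differences has a technical spread of 0.20, and 2 of these are 0.39, so that Col11a1 and Col11a2 are under this limit, Col9a3 is over it and Col9a1 and Col9a2 are just over it, with opposite signs past this limit in 6.11% of all genes. Col9a3 was over the limit in every setting tried (0.40 to 0.51), whereas Col9a1 was under it in all 5 other settings (0.27 to 0.34) and Col9a2 in 4 of 5 (0.29 to 0.34). On the cKO-labelled arrays, the TNF difference of Col11a1 and of Col11a2 changed sign under other scalings, and that of the bright Col9a1 probe was 0.01 with quantile normalization. The dim probe of Col9a1 was below 0 under both labels (-0.20 and -0.09), and so was Col27a1 (-0.19 and -0.31).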

How the results depend on the processing

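Of 180 values of single probes under other scalings, another background correction and with patches left out, 178 moved by less than the technical spread and 0 reversed from a called value. The others were TNF changes on the cKO-labelled arrays with quantile normalization, 0.01 for the bright Col9a1 probe and -0.11 for Col11a1. Many of the values could not move by themselves, so this count does not measure how stable they are. With patches left out, a probe kept its value or dropped out. Leaving out the scaling, using the authors' table or taking the percentile over other spots shifts all probes of an array alike. The median of the 7 collagens for the cKO label without TNF was -0.44 with patches left out, since this removed Col9a2 and Col11a2, and stayed at -0.84 with patches left out only on the 2 arrays compared, which was tried after seeing the data. The number of collagen genes lower without TNF, 1 at 2-fold, was 2 with the mean over the probes of a gene, 2 with patches on the 2 arrays compared left out (Col9a1 then rests on its dim probe), 4 at 1.5-fold and 0 at 3-fold. The number lower with TNF, 0 at 2-fold, was 1 with patches left out and 1 at 1.5-fold. The counts over all genes, between 255 and 1110, were between 99 and 301 with patches left out and between 60 and 647 with normexp. Without scaling, the median of all genes for TNF on the cKO-labelled arrays was -0.05 in place of 0.06. No paired analysis was possible because each condition was measured on 1 array, so that no group has replicates to pair. An additive fit of genotype and TNF over the 4 arrays was not run. For the same reason no replicate was left out.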
